A study of Danio rerio with 6 samples.

Results

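Zebrafish embryos injected with a control morpholino were compared with untreated embryos of the same age, 21 hours post-fertilization (hpf). A morpholino is an antisense oligonucleotide, and a control morpholino is given to show what injection and the oligonucleotide do without the intended target. The comparison takes 3 of the 6 arrays of the series, chosen by sample title: 2 arrays of embryos given the control morpholino and 1 array of untreated embryos. All 15502 probe sets other than the manufacturer's control probe sets were normalized, and the 9237 that passed a filter on intensity were tested. The series was made to find genes that depend on Spt5, a transcription elongation factor, and its other arrays at 21 hpf are 2 of embryos given an Spt5 morpholino. All embryos were whole, of the TL strain and otherwise without a stated mutation. Both morpholinos were injected at about 2.5 pmol at the start of cleavage and carried a fluorescein tag, while the untreated embryos received no injection. The sources used here give no sequence of the control morpholino, no number of embryos pooled and no word on separate clutches. Injection, tag, oligonucleotide and clutch therefore cannot be told apart in the difference, and a p-value measures the spread between arrays that may be technical replicates.

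A pair of responses to injected morpholinos are known from work in fish and frogs. The first is activation of p53, the transcription factor that answers DNA damage and stress. p53 induces its own inhibitor mdm2, brakes on growth such as cyclin G1 and the sestrins, and inducers of cell death such as bbc3 (Puma) and pmaip1 (Noxa). The second is an innate immune response, in which interferon-stimulated genes such as isg15 are switched on. At 21 hpf the embryo is forming its later somites, its heart tube and primitive blood, and it lives on yolk, which the yolk syncytial layer takes up and exports as lipoproteins and other secreted proteins.

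The arrays differed in brightness and in signs of RNA and labelling quality. Before normalization the median intensity was 40.3 on the untreated array and 32.6 and 44.0 on the control morpholino arrays. An intensity of at least 32 (5 on the log2 scale), below which a probe set is here called dim, was reached by 8618, 7828 and 8961 probe sets. The 3' to 5' ratio of the actin control probe sets was 7.59 untreated and 9.91 and 9.61 with the control morpholino, and it was 6.94 and 6.99 with the Spt5 morpholino. The ratio of the GAPDH control probe sets was 1.24 untreated, 1.70 and 1.76 with the control morpholino, and 1.39 and 1.42 with the Spt5 morpholino. Both ratios were thus higher on the control morpholino arrays than on the untreated array, and their part in the results was not tested. All log2 levels below are after quantile normalization over the 5 arrays at 21 hpf.

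Few probe sets passed the test of control morpholino against untreated embryos. With 1 untreated array, a small count does not show that few genes differed. Of 9237 probe sets bright on at least 1 of the 5 arrays, 141 (1.53%) passed limma's test at an adjusted p of 0.05. Of these 83 were higher and 58 lower with the control morpholino. The lowest adjusted p was 0.0116, and 2038 probe sets (22.1%) had an unadjusted p under 0.05. Called probe sets differed by a median of 1.32 (log2). With each gene represented by its brightest probe set, 57 of 6112 named genes were higher (0.933%) and 31 lower (0.507%). Of the 57, 25 were dim in untreated embryos and so were tested only through morpholino arrays. Of these 25, 6 were dim on all 3 compared arrays and tested only through the Spt5 morpholino arrays. A further 30 called probe sets had no single gene symbol, 22 of them higher and 8 lower.

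The arrays were also taken in pairs, with dim values raised to log2 5. The control morpholino arrays lay at least 2-fold apart from each other at 2 probe sets (0.0217%). The untreated array lay that far from them at 137 (1.48%) and 159 (1.72%). From the Spt5 morpholino arrays it lay that far at 1045 (11.3%) and 1139 (12.3%). By gene, 30 (0.491%) were at least 2-fold higher than untreated on both control morpholino arrays and 31 (0.507%) at least 2-fold lower. Without any fold threshold, 2551 genes (41.7%) lay above untreated on both control morpholino arrays and 2322 (38.0%) below on both.

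These calls stood close to the threshold. When control morpholino array 1, control morpholino array 2, Spt5 morpholino array 1 or Spt5 morpholino array 2 was left out, 0 probe sets passed in limma, with 1544 to 1880 at an unadjusted p under 0.05. Of the 141 called probe sets, the 137 to 141 still tested in each case all kept their direction. They were selected for a wide gap on these same arrays, so the kept direction is no independent support. How the arrays are scaled moved the split: 58.9% of calls were higher here, 50.0% on the deposited values without normalization, and 3.47% of 2276 calls after centring on all spike-in control probe sets, when the median probe set shifted by -0.44 (log2). The hybridization spike-ins alone shifted the median by -0.00 and gave 47.2% of 354 calls higher, and the poly-A spike-ins shifted it by -0.30 and gave 12.8% of 483. Differences below are those of the quantile-normalized levels, and the direction of every gene of the naming rule held under all of these scalings.

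**Figure D1:**
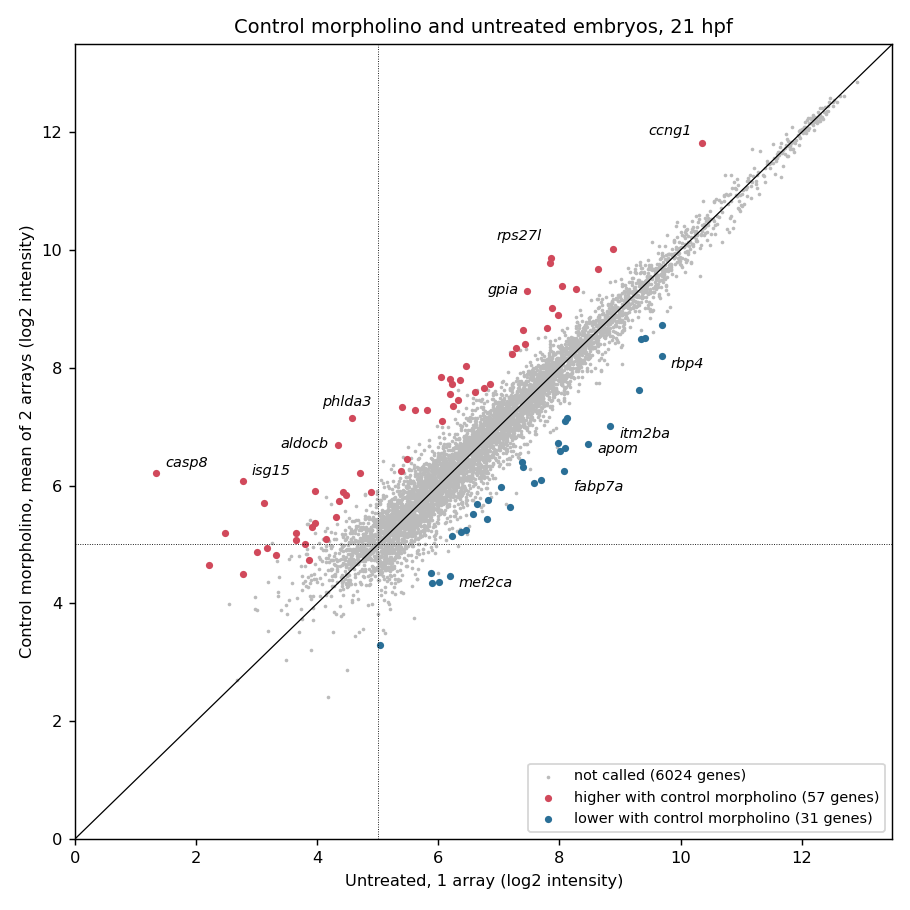
Each point is 1 of 6112 genes, with the log2 intensity on the untreated array on the x axis and the mean of the 2 control morpholino arrays on the y axis; dotted lines mark log2 5. The 57 genes called higher (red) and 31 called lower (blue) lie off a narrow diagonal, and 25 of the red genes were below log2 5 in untreated embryos.

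The target of the other morpholino did not pass. supt5h, which encodes Spt5, stood at 7.78 untreated and 7.64 and 7.46 with the control morpholino. The difference was -0.23 ± 0.18 (log2, SE, n = 2 and 1; adjusted p = 0.48).

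The p53 and apoptosis list, which mixes p53 targets with other death and stress genes, supplied 10 of the 57 genes called higher. Of 35 genes of the p53 and apoptosis list on the array, 31 were tested, 10 were called higher and 0 lower, where the background is 0.933% of genes higher. At an unadjusted p under 0.05 there were 16 higher and 1 lower, where the share over all probe sets is 22.1%. This share, of both directions together, is the background of such counts in every list below. Of the 10, 6 were bright on all 3 compared arrays, casp8 and phlda3 were dim in untreated embryos, and bbc3 and pmaip1 were dim on all 3. The count was 5 on the deposited values, 3 with dim values set to log2 5, and 8 to 15 under the other scalings, filters and variance model that left any call. The median difference of the 31 was 0.50 on the log2 scale (0.27 with dim values raised to log2 5), against 0.01 over all genes. Of the 31, 21 lay above untreated on both control morpholino arrays (67.7%, against 41.7% of all genes). Below untreated on both lay 6 (19.4%, against 38.0% of all genes). At least 2-fold on both arrays was reached by 7, none of them downward. Over all genes 0.491% were at least 2-fold higher on both.

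Growth brakes and feedback genes of the pathway rose. rps27l, a ribosomal protein paralog that p53 induces in mammals, read 7.86 on the untreated array and 9.88 and 9.87 on the control morpholino arrays. It rose by 2.01 ± 0.11 (log2, SE; adjusted p = 0.0211), or 4.04-fold. sesn3, a sestrin that restrains growth signalling through mTORC1, went from 7.84 to 9.78 on both control morpholino arrays, a rise of 1.94 ± 0.11 (adjusted p = 0.0243). For both genes the gap to untreated was far wider than that between the control arrays, which the test that called them selects for. ccng1, the cyclin G1 gene, was already bright at 10.36 and reached 11.74 and 11.87, a rise of 1.45 ± 0.13 (adjusted p = 0.0288). mdm2, the ubiquitin ligase that degrades p53, read 7.40, then 8.76 and 8.55, and rose by 1.26 ± 0.14 (adjusted p = 0.0468). phlda3, a p53-induced inhibitor of AKT in mammals, was dim in untreated embryos at 4.58 and bright on the control morpholino arrays at 7.18 and 7.12. Its rise was at least 4.43-fold (adjusted p = 0.0152), and it was tested only through the morpholino arrays, where it is high.

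Some death inducers of the list were called from dim levels. casp8, the initiator caspase of death receptors, stood at 1.34 untreated and at 6.33 and 6.09 with the control morpholino, a rise of at least 2.31-fold (adjusted p = 0.0116). It was tested through the morpholino arrays, where it is high. The BH3-only genes bbc3 and pmaip1 were called but dim on all 3 compared arrays. They were tested only through the Spt5 morpholino arrays, so no rise or fold is given. bbc3 read 3.0, 4.92 and 4.81 (adjusted p = 0.0271), and pmaip1 read 3.87, 4.71 and 4.77 (adjusted p = 0.0499). foxo3b, a forkhead factor that acts in stress and survival signalling, rose by 1.36 ± 0.15 (adjusted p = 0.0421), though its other probe set, dim on these 3 arrays, gave 0.34 and was not called. bnip3lb, a mitophagy receptor gene, rose by 1.04 ± 0.13 (adjusted p = 0.0499), and its other probe set gave 0.50 and was not called.

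Other members of the list did not pass. baxa, the pore-forming Bax gene, read 6.94 untreated and 7.60 and 7.59 with the control morpholino, a difference of 0.65 ± 0.11 (adjusted p = 0.073). Among the gadd45 genes of growth arrest, gadd45aa was dim on all 3 arrays, gadd45bb differed by 0.65 (adjusted p = 0.113) and gadd45ga by 0.67 (adjusted p = 0.1). The apoptosome protease gene casp9 was at 0.20, the anti-apoptotic mcl1b at -0.25 and the p53 inhibitor mdm4 at -0.17, each with an adjusted p over 0.05. casp2 was the lowest at -1.54 ± 0.78, with its control arrays at 4.07 and 3.01.

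The Spt5 morpholino arrays stood further from untreated for these genes. They share the untreated array with this comparison, so the values are set side by side only. In the Spt5 morpholino embryos 22 of the 31 list genes were higher than untreated and 3 lower, with a median of 1.21, where 19.6% of all genes were higher and 20.8% lower. rps27l was at 10.88 and 10.87, sesn3 at 10.96 and 11.02, phlda3 at 8.08 and 8.05 and mdm2 at 9.91 and 9.80. ccng1 was at 11.91 and 11.98, and its difference between the morpholinos was 0.14 ± 0.10 (adjusted p = 0.325). baxa was at 9.22 and 9.26 and gadd45aa at 8.39 and 8.10, both well above their control morpholino levels.

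**Figure D2:**
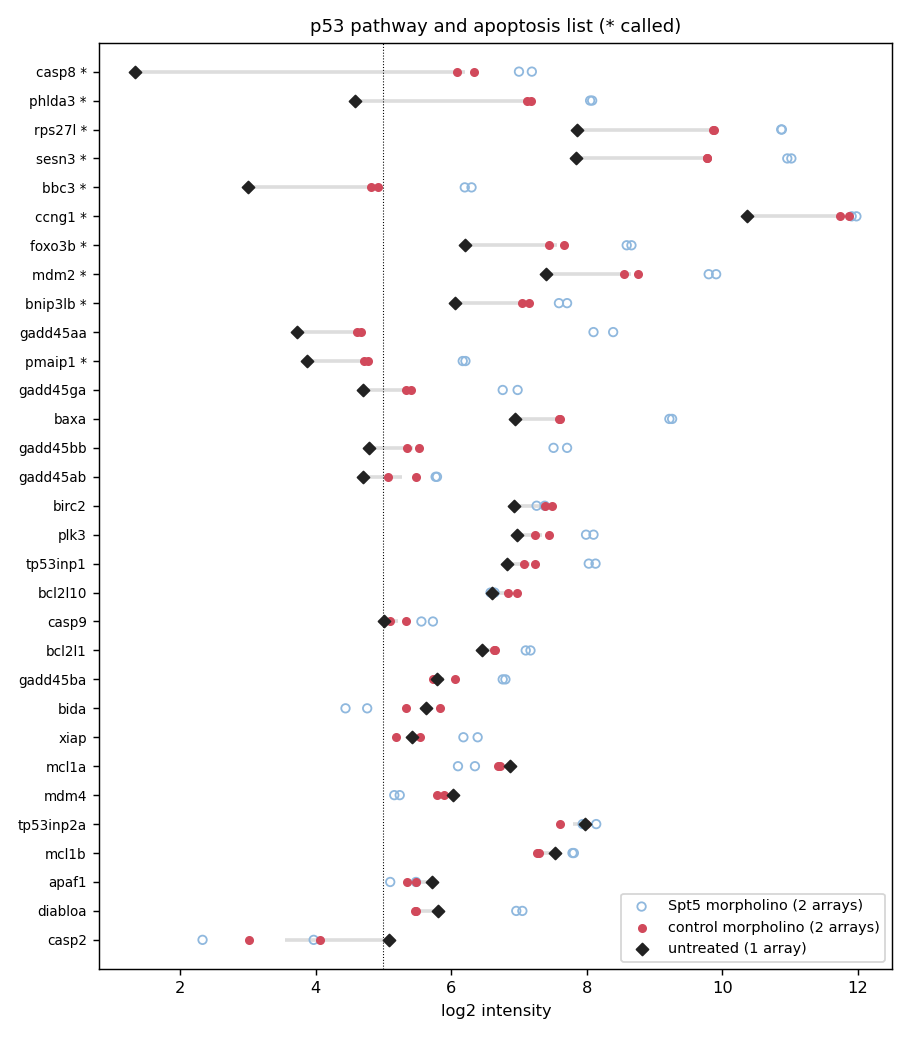
The 31 tested genes of the p53 and apoptosis list are ordered by their difference, with log2 intensity on the x axis, 1 diamond for the untreated array, 2 filled points for the control morpholino and 2 open points for the Spt5 morpholino; the dotted line is log2 5 and asterisks mark the 10 called genes. In the called genes both control morpholino points lie right of the diamond, from casp8 at the top to pmaip1, and baxa lies the same way without a call.

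A pair of interferon-stimulated genes rose. Of 24 list genes on the array 12 were tested, 2 rose and 0 fell (background 0.933% higher), with a median of 0.02. At an unadjusted p under 0.05 there were 3 higher and 1 lower, where the share over all probe sets is 22.1%. The rises numbered 1 on the deposited values and with all or poly-A spike-ins. They numbered 0 with dim values set to log2 5, and 2 in the other settings that left any call. isg15, the ubiquitin-like modifier induced by interferon, read 2.77 untreated and 6.07 and 6.08 with the control morpholino, and 7.41 and 7.57 with the Spt5 morpholino. Its rise over untreated with the control morpholino was at least 2.11-fold (adjusted p = 0.0116). Like casp8, isg15 was tested through the morpholino arrays, where it is high. isg20, an exonuclease gene, read 6.85, then 7.77 and 7.70, and rose by 0.88 ± 0.12 (adjusted p = 0.0499). The proteasome gene psmb10 was the lowest member at -1.84 ± 0.87 and was not called (adjusted p = 0.288). The complement gene c3a.1 also lay lower, at 7.29 untreated and 5.96 and 5.78 with the control morpholino, and missed the threshold (-1.42 ± 0.19; adjusted p = 0.0514). The complement gene c7b, which is not on that list, read 6.2, 7.93 and 7.70 and rose by 1.61 ± 0.15 (adjusted p = 0.0336). In the myeloid list, the marker list for innate immune cells, 0 of 12 tested genes passed in limma (3 at an unadjusted p under 0.05), and its median was 0.17.

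Some genes of glycolysis were higher as well. Of 41 genes of the glycolysis and hypoxia list on the array 29 were tested, 5 rose and 1 fell (backgrounds 0.933% and 0.507%; 13 higher and 4 lower at an unadjusted p under 0.05), with a median of 0.34 (0.22 with dim values raised). On both control morpholino arrays 22 lay above untreated (75.9%) and 6 below (20.7%), against 41.7% and 38.0% of all genes. The rises numbered 2 on the deposited values, 0 with dim values set to log2 5, 8 with median centring or with log2 of at least 5 on 2 arrays, 10 with log2 of at least 6, and 13 with an intensity trend. With all spike-ins 5 rose and 6 fell, with hybridization spike-ins 7 rose and 2 fell, and with poly-A spike-ins 4 rose and 2 fell. gpia, glucose-6-phosphate isomerase, read 7.46 untreated and 9.34 and 9.28 with the control morpholino, a rise of 1.86 ± 0.14 (adjusted p = 0.0288), and stood at 8.98 and 9.19 with the Spt5 morpholino. aldocb, an aldolase gene, was dim at 4.34 and reached 6.68 and 6.70, at least 3.23-fold higher (adjusted p = 0.0156). This probe set was tested only through the morpholino arrays, where it is high. The other probe set of aldocb rose by 1.29 ± 0.17 (adjusted p = 0.0499). The enolase gene eno1a read 7.28, 8.32 and 8.36 and rose by 1.06 ± 0.11 (adjusted p = 0.0428). In each of the 3 genes both control morpholino arrays lay well above the untreated array, as a call upward requires.

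The glycolytic list was not uniform. gapdhs, a glyceraldehyde-3-phosphate dehydrogenase gene, rose by 0.92 ± 0.12 (adjusted p = 0.0499), from 7.97 to 8.94 and 8.85. Its paralog gapdh, at 10.54 untreated and 10.41 and 10.34, did not pass (-0.16; adjusted p = 0.507). slc16a3b, a lactate transporter gene, was called at an adjusted p of 0.0499 with 1 of its control morpholino arrays still dim (3.79 untreated, then 4.88 and 5.12). Dim in untreated embryos, it too was tested only through morpholino arrays. The member that fell was pklr, the pyruvate kinase of liver and red cells, at 7.39 untreated and 6.39 and 6.22 with the control morpholino (-1.09 ± 0.13; adjusted p = 0.0468). Just outside the threshold were the pyruvate kinase gene pkma at 0.83 (adjusted p = 0.0514) and the HIF-induced genes egln3 (1.09; adjusted p = 0.0553) and p4ha1b (1.08; adjusted p = 0.0578). The HIF subunit gene hif1ab itself was at 0.12 (adjusted p = 0.578).

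Genes of the yolk syncytial layer, liver and gut were lower in a small subset. Of 69 list genes on the array 46 were tested, 0 rose and 7 fell (background 0.507% lower; 3 higher and 14 lower at an unadjusted p under 0.05), with a median of -0.14. On both control morpholino arrays 30 lay below untreated (65.2%) and 12 above (26.1%), against 38.0% and 41.7% of all genes. The falls numbered 4 on the deposited values, 0 with dim values set to log2 5, 14 with an intensity trend, and 27 and 11 with all and with poly-A spike-ins. The fibrinogen chains fell together: fgb read 7.69 untreated and 6.2 and 5.98 with the control morpholino (-1.60 ± 0.15; adjusted p = 0.0336). fga read 7.58, 6.0 and 6.08 (-1.53 ± 0.13; adjusted p = 0.0288), and fgg read 8.13, 7.18 and 7.10 (-0.99 ± 0.12; adjusted p = 0.0468). No control morpholino value of a fibrinogen chain reached its untreated value, which follows from their being called lower. rbp4, the retinol carrier of plasma, read 9.69, 8.35 and 8.06 (-1.49 ± 0.16; adjusted p = 0.0421).

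Other secreted and lysosomal genes of the list also fell. Haptoglobin hp was dim on both control morpholino arrays and fell at least 1.86-fold (adjusted p = 0.0415), and the vitronectin gene vtnb was at -1.06 ± 0.14 (adjusted p = 0.0499). ctsba, the lysosomal protease cathepsin B, read 8.09 untreated and 6.68 and 6.58 with the control morpholino (-1.46 ± 0.12; adjusted p = 0.0288). apom, the lipocalin apolipoprotein M of lipoprotein particles, was not on the list and read 8.47, 6.70 and 6.69 (-1.77 ± 0.11; adjusted p = 0.0271). The abundant lipid carriers of the yolk layer moved little: apoa1a read 12.24, 12.22 and 12.21, apoa2 11.95, 11.81 and 11.77, and apoeb 11.80, 11.78 and 11.76. None of these 3 was called.

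With the Spt5 morpholino the fibrinogen chains and rbp4 stood lower still. fgb was at 4.50 and 4.65, fga at 3.82 and 3.97, fgg at 5.51 and 5.58 and rbp4 at 6.21 and 6.26. apom was near its control morpholino level, at 6.97 and 7.02 (0.30 ± 0.09 between the morpholinos; adjusted p = 0.0536). ctsba went the other way, to 9.34 and 9.27, above untreated by 1.22 ± 0.12 (adjusted p = 0.00379). itih2, a secreted matrix-binding inhibitor, did not pass with the control morpholino (7.42 untreated, then 7.61 and 7.77; adjusted p = 0.629) and dim with the Spt5 morpholino at 3.84 and 3.18. The list thus held genes at 3 kinds of level across the 5 arrays. Fewer cells of a type and less RNA per cell cannot be told apart in whole embryos.

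**Figure D3:**
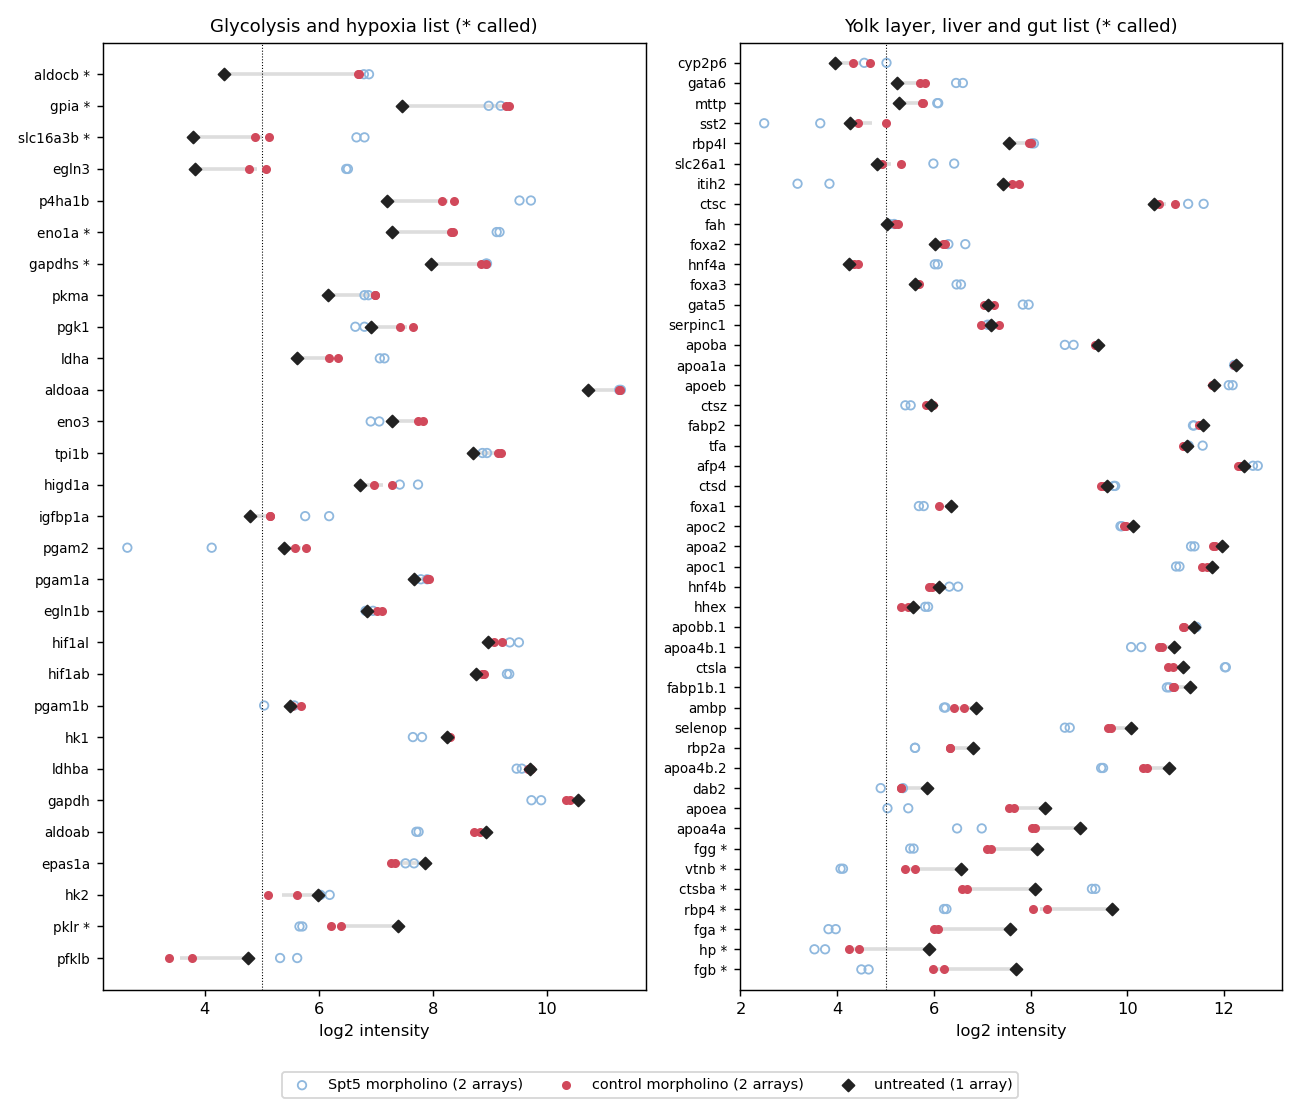
The 29 tested genes of the glycolysis and hypoxia list (left) and the 46 of the yolk layer, liver and gut list (right) are ordered by their difference, with log2 intensity on the x axis, a diamond for the untreated array, filled points for the 2 control morpholino arrays and open points for the 2 Spt5 morpholino arrays; asterisks mark called genes. The 5 called rises lie high in the left panel and the 7 called falls at the foot of the right one, while the bright apolipoproteins near log2 12 overlap or nearly overlap the untreated value.

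Immediate early genes, which answer stimuli within minutes without new protein synthesis, were lower where they were called. Of 43 on the array 34 were tested, 0 rose and 2 fell (background 0.507% lower), with a median of -0.18. At an unadjusted p under 0.05 there were 3 higher and 8 lower. On both control morpholino arrays 23 lay below untreated (67.6%, against 38.0% of all genes). The falls numbered 1 on the deposited values, 0 with dim values set to log2 5, and 4 to 17 in the other settings that left any call. fosab, the c-Fos gene, read 6.45 untreated and 5.30 and 5.17 with the control morpholino (-1.22 ± 0.14; adjusted p = 0.0468). Its 3 other probe sets were also called lower, at -1.17, -1.73 and -1.35. junba, which encodes a JunB partner of Fos, read 6.01, then 4.59 and 4.13, at least 2.01-fold lower (adjusted p = 0.0499). The signalling inhibitor gene rgs2 (-1.19; adjusted p = 0.0557) and the factor gene cebpd (-1.16; adjusted p = 0.0553) fell just short. Upward, egr2b was at 0.96 (adjusted p = 0.0883). With the Spt5 morpholino fosab stood above untreated, at 8.11 and 7.93. junba, at 5.47 and 5.51, lay below its untreated level without a call (-0.52; adjusted p = 0.115).

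Of 19 tested genes of the circadian list 1 rose and 1 fell (backgrounds 0.933% and 0.507%; 6 higher and 4 lower at an unadjusted p under 0.05), with a median of -0.03. ciarta, a repressor of the clock, read 7.19 untreated and 5.83 and 5.43 with the control morpholino (-1.56 ± 0.20; adjusted p = 0.0499), and 7.38 and 7.55 with the Spt5 morpholino. nfil3-6, from a family of clock output factors, rose at least 1.29-fold (adjusted p = 0.0288) from 3.97 to 5.43 and 5.31. It was dim in untreated embryos and tested only through the morpholino arrays, where it is high. On the deposited values the list had 0 rises and 1 fall, and with dim values set to log2 5 it had 0 of each. In the other settings that left any call there were 1 to 4 rises and 1 to 6 falls. The light-induced gene per2 was at 1.15 ± 0.20 (adjusted p = 0.076).

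In the matrix and repair list 2 of 34 tested genes rose and 0 fell (backgrounds 0.933% higher and 0.507% lower), with a median of 0.13. At an unadjusted p under 0.05 there were 8 higher and 3 lower, where the share over all probe sets is 22.1%. The rises numbered 0 on the deposited values and with dim values set to log2 5. They numbered 1 with poly-A spike-ins and 2 to 8 in the other settings that left any call. The collagen chaperone gene serpinh1b (Hsp47) read 8.88 untreated and 9.95 and 10.09 with the control morpholino, a rise of 1.14 ± 0.14 (adjusted p = 0.0499). It was also the lone called gene among 25 tested of the heat shock list (background 0.933% higher), whose median was 0.20. At an unadjusted p under 0.05 the heat shock list had 5 higher and 2 lower. Its rises numbered 0 on the deposited values and with dim values set to log2 5, and 1 to 6 in the other settings that left any call. The gelatinase gene mmp2 read 6.32, 7.38 and 7.54 and rose by 1.14 ± 0.15 (adjusted p = 0.0499), and its other probe set rose by 1.27 ± 0.11 (adjusted p = 0.0289). plod1a, a lysyl hydroxylase gene for collagen that is on the notochord list, read 7.87, 8.98 and 9.04 and rose by 1.14 ± 0.12 (adjusted p = 0.0397). The fibronectin gene fn1b was at 1.05 ± 0.20 and did not pass (adjusted p = 0.0868). The lowest member was the integrin gene itga6b at -1.76 ± 1.02, dim on all 3 arrays and not called (adjusted p = 0.365).

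Other large rises had mixed functions. mak16, a gene for a nucleolar protein of large ribosomal subunit assembly in yeast, read 5.40 untreated and 7.34 and 7.33 with the control morpholino (1.93 ± 0.21; adjusted p = 0.0421). LOC567909, a locus without a descriptive symbol, read 6.04, 7.86 and 7.85 (1.82 ± 0.11; adjusted p = 0.0261). ptgdsb.1, a lipocalin-type prostaglandin D synthase gene, read 5.61, 7.23 and 7.34 (1.67 ± 0.14; adjusted p = 0.0288). In each the gap between the control arrays was small beside the gap to untreated, which the test that called them selects for. fsta, the follistatin gene for a secreted activin antagonist, rose by 1.58 ± 0.14 (adjusted p = 0.0289), and its other probe set gave 1.12 at an adjusted p of 0.0611. pik3r3a, a regulatory subunit gene of phosphoinositide 3-kinase, rose by 1.52 ± 0.16 (adjusted p = 0.0421), and rsrp1, an arginine- and serine-rich protein gene, by 1.47 ± 0.13 (adjusted p = 0.0289).

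Mitochondrial and lysosomal lists each held isolated changes. Of 84 tested genes of oxidative phosphorylation 2 rose and 0 fell (backgrounds 0.933% and 0.507%), with a median of -0.06. At an unadjusted p under 0.05 there were 2 higher and 8 lower, where the share over all probe sets is 22.1%. cox6b1, a subunit of cytochrome c oxidase, read 6.35, 7.78 and 7.80 (1.44 ± 0.12; adjusted p = 0.0288), and ndufa4b rose at least 1.62-fold (adjusted p = 0.0288). In the lysosome and autophagy list, against the same backgrounds, ctsba was the fallen gene of 44 tested. The risen one was scarb2c, a lysosomal membrane receptor gene, at least 1.85-fold higher (adjusted p = 0.0288). It read 4.43 untreated, 5.82 and 5.96 with the control morpholino, and 4.89 and 4.82 with the Spt5 morpholino. In the same order ndufa4b read 3.12, then 5.5 and 5.9, then 4.05 and 4.26. Both genes were thus tested only through the control morpholino arrays, where they are high. At an unadjusted p under 0.05 the lysosome and autophagy list had 4 higher and 3 lower. Among 71 tested genes of the ribosomal protein list rps27l alone was called (background 0.933% higher), and their median was 0.00. The list was taken by symbol and includes the kinase gene rps6kal. At an unadjusted p under 0.05 there were 1 higher and 1 lower.

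The remaining large falls were in genes of mixed function. etf1b, the translation release factor eRF1, read 9.32 untreated and 7.72 and 7.55 with the control morpholino (-1.68 ± 0.13; adjusted p = 0.0288). A second probe set of it gave -1.61 (adjusted p = 0.0288), and another, dim on both control morpholino arrays, gave -0.32 without a call. eif5b, which joins the ribosomal subunits at initiation, read 8.01, 6.59 and 6.58 (-1.43 ± 0.11; adjusted p = 0.0288), with -1.35 at its other probe set. syncripl, related to an hnRNP that binds RNA, read 6.81, 5.53 and 5.35 (-1.37 ± 0.14; adjusted p = 0.0415). The transmembrane protein gene itm2ba read 8.84, 6.84 and 7.18 (-1.83 ± 0.20; adjusted p = 0.0443), the phosphatidylinositol transfer protein gene pitpnbl was at -1.26 ± 0.13 (adjusted p = 0.0397) and the LIM domain gene lpp at -1.15 ± 0.13 (adjusted p = 0.0451).

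For several of these genes the Spt5 morpholino arrays lay near the untreated array. With the Spt5 morpholino etf1b read 9.52 and 9.46, eif5b 7.87 and 7.80, pitpnbl 7.73 and 7.89 and lpp 6.43 and 6.41. Their differences from untreated were 0.17, -0.18, -0.17 and 0.05, and none was called. itm2ba stood at 9.26 and 9.52 (0.56 over untreated; adjusted p = 0.0845) and ciarta at 0.28 over untreated (adjusted p = 0.322). Among the risen genes, mak16 read 5.31 and 5.75 with the Spt5 morpholino and cox6b1 6.52 and 6.39, at 0.13 and 0.10 over untreated without a call. Between the 2 morpholinos these genes were called: etf1b at 1.86 ± 0.11 (adjusted p = 0.00191), eif5b at 1.25 ± 0.09 (adjusted p = 0.00238), itm2ba at 2.39 ± 0.16 (adjusted p = 0.00224), mak16 at -1.81 ± 0.17 (adjusted p = 0.00312) and cox6b1 at -1.34 ± 0.10 (adjusted p = 0.00238), Spt5 minus control. The genes were chosen for a gap between control morpholino and untreated and for Spt5 morpholino levels near untreated. Calls between the morpholinos follow from that choice and are no further support. In that comparison 3964 of 9237 probe sets were called. For these chosen genes the control morpholino arrays stood apart from the other arrays, and the untreated level rests on 1 array.

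Cell type and patterning lists held few calls. In the neural progenitor list 2 of 73 tested genes fell and 0 rose (background 0.507% lower; 6 higher and 17 lower at an unadjusted p under 0.05). fabp7a, the fatty acid binding protein of radial glia, read 8.07 untreated and 6.26 and 6.23 (-1.82 ± 0.14; adjusted p = 0.0288), and 4.23 and 4.02 with the Spt5 morpholino. sox19b, a SoxB1 factor gene, was the other fallen gene (-0.96 ± 0.12; adjusted p = 0.0499), with -0.91 at its second probe set without a call. mef2ca, a muscle and heart transcription factor gene, fell at least 2.29-fold from 6.19 to 4.59 and 4.34 (adjusted p = 0.0381). It was the one called gene of 43 tested in the skeletal muscle list and of 20 in the heart list (background 0.507% lower). At an unadjusted p under 0.05 the muscle list had 7 higher and 1 lower, and the heart list 3 higher and 2 lower. agr2, a disulfide isomerase gene of secretory cells, read 7.38, 6.41 and 6.4 (-0.98 ± 0.11; adjusted p = 0.0468). It was the one called gene of 47 tested in the epidermis list (background 0.507% lower). At an unadjusted p under 0.05 the epidermis list had 7 higher and 5 lower, where the share over all probe sets is 22.1%. Among 34 tested of the notochord and hatching gland list agr2 stood beside the rises of gpia and plod1a (backgrounds 0.933% higher and 0.507% lower). At an unadjusted p under 0.05 that list had 7 higher and 2 lower. Among 53 tested blastula and gastrula regulators sox19b was the fallen gene, against the same backgrounds. At an unadjusted p under 0.05 these regulators had 14 higher and 6 lower. szl, a secreted modulator of BMP signalling, was called upward (adjusted p = 0.0288) but was dim on all 3 compared arrays (2.77, 4.38 and 4.61) and tested only through the Spt5 morpholino arrays, so it is not given as a rise.

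In 17 of 34 lists no tested member passed in limma, with medians from -0.38 for the eye and lens list to 0.17 for the myeloid list. Counted list by list, 90 of their 469 members had an unadjusted p under 0.05, 34 higher and 56 lower, where the share over all probe sets is 22.1%. They included erythroid genes (26 tested, median -0.06), neural crest and pigment cells (28, median -0.13), Hox genes (33, median 0.01), somite segmentation and Notch (35, median 0.08), neuronal differentiation (35, median -0.11) and the elongation machinery of Spt5 (41, median 0.08). Of 76 tested genes of the cell cycle and DNA replication 0 passed (0 higher and 12 lower at an unadjusted p under 0.05), with a median of -0.14. Of the 76, 45 lay below untreated on both control morpholino arrays (59.2%, against 38.0% of all genes). With the Spt5 morpholino 67 of those 76 were lower than untreated, with a median of -1.30, where 20.8% of all genes were lower. A missed threshold does not show that these genes stood at equal levels.

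**Figure D4:**
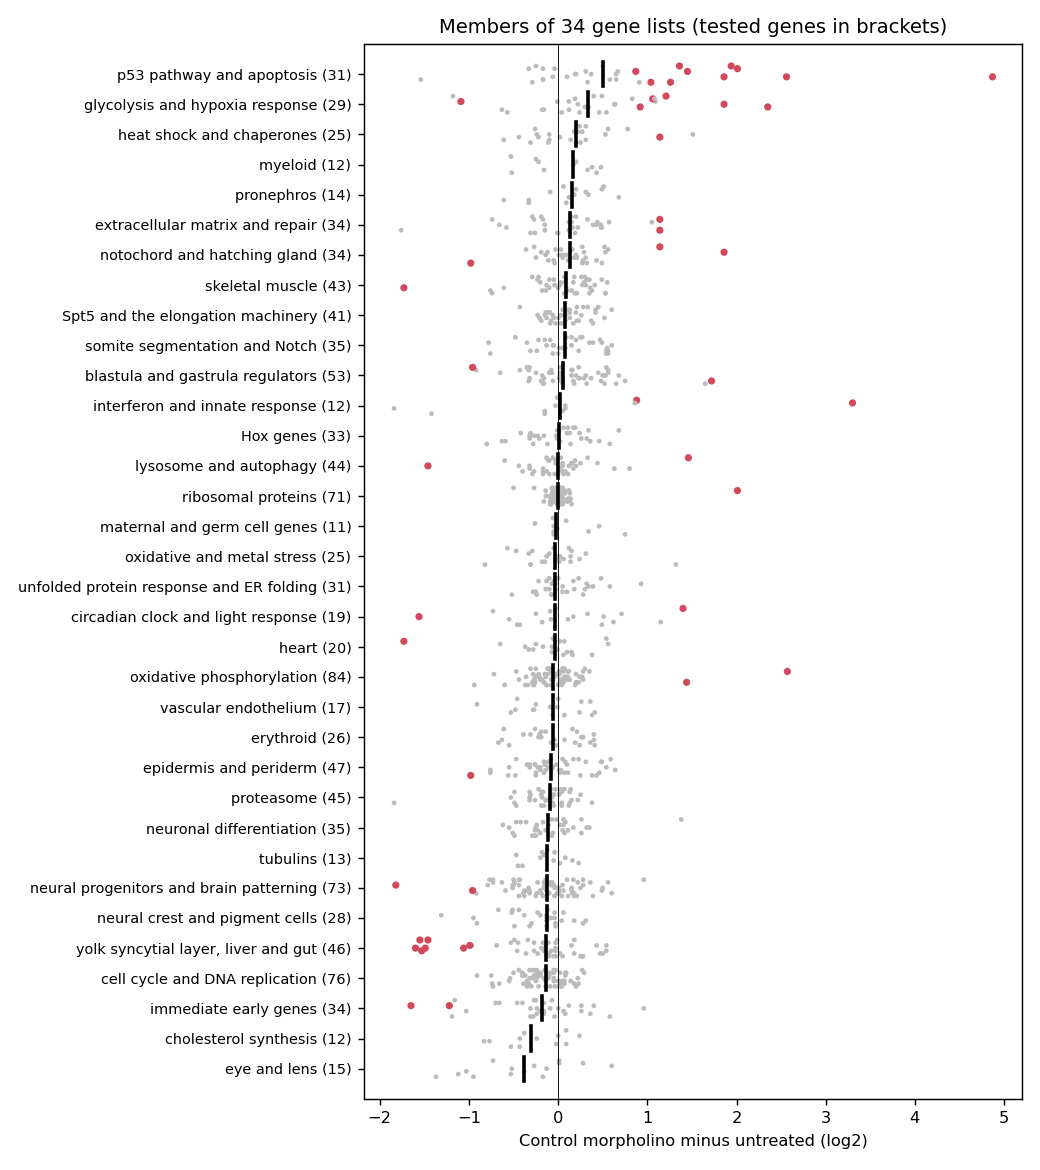
Each row is 1 of 34 gene lists with the number of tested genes in brackets, each point is a gene's control morpholino minus untreated difference (log2) on the x axis, red points are called genes and black bars are list medians. The p53 list has the highest median at 0.50 and 10 red points on the right, the yolk layer, liver and gut list has 7 on the left, and most other lists centre near 0.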

How the data were processed

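The authors deposited 1 table of probe set intensity values on a linear scale, with GCRMA named without a version in the submitters' processing notes and no settings stated. Log2 of the deposited intensity was quantile normalized across the 5 arrays at 21 hpf, because the medians differ. The 115 manufacturer's control probe sets were left out, and probe sets with log2 of at least 5 on at least 1 of 5 arrays were tested. limma 3.58.1 (R 4.3.3) fitted the differences with lmFit and eBayes, with a two-sided test, Benjamini-Hochberg adjustment, a threshold of 0.05 and 2 residual degrees of freedom. This takes the single untreated array to vary as the morpholino groups do. The number of arrays limits the precision; the median within-group SD was 0.12 (log2). Of 15502 probe sets, 10795 had 1 gene symbol, 135 several and 4572 none; 10711 symbols were updated through Entrez identifiers to RefSeq assembly GRCz12tu. A gene's brightest probe set (highest mean log2 over the 5 arrays) stood for it. Where every array of the lower group was dim and the other group was not, folds are lower limits with dim values raised to log2 5.

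Named genes were the 15 largest differences in each direction among called genes, up to 4 called members of each list, and supt5h; further called or uncalled members of lists were chosen as examples after their values were seen. Members and lists were chosen with earlier results of these data known, and lists are described by counts and medians without a test. On simulated data for this comparison, the fit over 9237 probe sets recovered 90 of 100 changes of 1 and 99 of 100 changes of 2 on the log2 scale, with 9 unchanged probe sets called. The simulation drew normal noise from the fitted variances for every array, the untreated one included, and needed no normalization. It checks the code and cannot test whether the untreated array varies as the others do, so these rates may not hold for the real arrays. Alternatives covered normalization, filter, floor, variance model, arrays in the fit and a replicate block. The spike-in types taken separately were added after seeing the data. Sequences of promoters and probes were not used here.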

Additional observations from a re-analysis of the deposited data

How the results depend on the processing

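Called probe sets numbered 141, named genes 44 (supt5h apart) and called list members 40. With any 1 of the 4 morpholino arrays left out, in the fits on the 3 compared arrays alone with either quantile normalization, with no filter on dim probe sets, and with the replicate number as a replicate block, 0 of each passed in limma; unadjusted p under 0.05 then held for 1544 to 2256 probe sets. Leaving out an array leaves fewer residual degrees of freedom, and no filter tests 15502 probe sets. The replicate numbers gave a correlation of deviations of 0.22 between the morpholino groups, and the labels do not say that they pair arrays. The counts of probe sets, named genes and list members were 52, 23 and 24 on the deposited log2 values, and 7, 6 and 4 with values under log2 5 set to 5. They were 2276, 43 and 336 with all spike-ins, 354, 44 and 69 with hybridization spike-ins, and 483, 42 and 81 with poly-A spike-ins. They were 233, 44 and 51 with median centring, 250, 44 and 50 with log2 of at least 5 on 2 arrays, 461, 41 and 85 with log2 of at least 6, and 932, 44 and 167 with an intensity trend. The called probe sets still tested kept their direction in every setting, except that with the floor 133 of 141 did and the others had no difference in that direction. Every setting used arrays that gave the calls, so this is no independent support. With the median over a gene's probe sets in place of the brightest, the p53 list median was 0.50. Dim signal limits 25 of the 57 genes called higher, whose untreated value lay below log2 5.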
